A study of Mus musculus with 2 samples.

Results

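The gene Zfp335 and 3 genes with very low values where Zfp335 had been deleted, Ankle2, Cnpy2 and Apip, were followed through every cell state of the data. The 4 genes are 4 of 32285 features in the count matrices. Zfp335 is the gene that the study deleted. The other 3 had been chosen on these same libraries, because their ratio of KO to WT signal in resting Treg-like barcodes was among the lowest, so that ratio is a description and supports nothing. The remaining cell states and the other lineages did not enter the choice, although they come from the same libraries.

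Zfp335 is a nuclear protein with C2H2 zinc fingers that binds promoters and associates with complexes that methylate histone H3 lysine 4. It is known to be required for the maturation of T cells. Ankle2 is a LEM-family protein of the nuclear envelope and endoplasmic reticulum, and it controls the DNA-binding protein BAF when the envelope is rebuilt after mitosis. It has been described as a target of Zfp335 in thymocytes. Cnpy2 is a canopy-family protein of the endoplasmic reticulum that interacts with the ubiquitin ligase MYLIP. Apip is the dehydratase of the methionine salvage pathway, which recycles the sulphur-containing remnant of polyamine synthesis, and it also binds APAF1 and inhibits the apoptosome.

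Tregs were sorted from spleens of 7-day-old C57BL/6J mice as YFP+7AAD- cells per the labels, with CD4 as a further gate per the study's methods, and profiled by droplet single-cell RNA-Seq, with 1 library per genotype. The WT library came from mice that carry Foxp3-Cre with intact Zfp335 according to the study's methods, and the KO library from Zfp335fl/fl Foxp3-Cre mice. The YFP reporter and the Cre both follow the Foxp3 promoter, so the deletion applies to cells that express or have expressed Foxp3. The sources used here do not state how many mice were pooled per library, and the labels do not give the floxed exons. The assay reads the 3' end of transcripts, so a UMI of Zfp335 does not show whether the deleted part was present.

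The WT library held 8053 and the KO library 13767 barcodes that passed the limits of 300 genes or more and no more than 5% mitochondrial UMIs, with medians of 5061 and 2713 UMIs. A barcode marks 1 droplet, and a unique molecular identifier (UMI) marks 1 captured transcript. The libraries had 64567991 and 65480052 UMIs in all, and 29 of the kept barcode sequences occurred in both. Clustering without the 4 genes gave 13 clusters, of which 7 carried T cell receptor and CD3 transcripts at a level called T-lineage. Named T cell states were resting Treg-like with 2103 WT and 4553 KO barcodes, effector Treg-like with 2276 and 111, and activated Treg-like with 749 and 1343. A further T-lineage cluster of 656 and 1062 barcodes, led by replication-dependent histone genes, carried proliferation and effector markers together and was left without a name. Its median depth was 14214 UMIs in WT and 7926 in KO. In a finer clustering (resolution 1.0) histone genes were among the leading genes of an effector Treg-like cluster of 427 WT and 18 KO barcodes. They were also among those of an unnamed cluster of 170 and 734. The WT and KO barcodes of the histone-led cluster may thus be of unlike kinds, and the part of this in its ratios was not tested. The finer clustering named no cluster activated Treg-like. An unnamed cluster of 617 WT and 921 KO barcodes shared the leading genes Nefh, Penk and Tnfrsf9 with that state. Another of 6 and 225, led by Cdkn1a, shared Phlda3 and Bcat1. The activated Treg-like barcodes may thus also be of unlike kinds in WT and KO, and the part of this in their ratios was not tested. The main clustering had 3 other unnamed T-lineage clusters, which were shallow. A cluster of 103 WT and 4743 KO barcodes and a cluster of 10 and 753 were led by haemoglobin and by neutrophil granule transcripts, whereas a cluster of 1590 and 361 was led by AY036118, a transcript related to ribosomal RNA. Foxp3 had 62.7 CPM in WT and 62.3 CPM in KO resting Treg-like barcodes, against 5.59 and 8.80 CPM in the other lineages. Here CPM are UMIs scaled to a common total within each library and state. The other lineages, 566 WT and 841 KO barcodes, were erythroid-like, neutrophil-like, B cell-like and macrophage-like. Each genotype has a single library, and WT and KO were therefore compared without a test. All intervals below are at the 95% level and cover counting error only. In pooled counts, fewer cells that express a gene and less RNA per cell cannot be told apart.

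The 250 bases before the annotated transcription start of each gene are shown because the 4 genes were low together in KO T-lineage barcodes and because antisense transcripts that overlap 2 of these starts were low there too, as given further on. They were taken from the RefSeq promoter table for GRCm38.p6 and are written 5' to 3' on the strand of the gene, with capitals for any match to the motifs searched. Zfp335 lies on the minus strand with this window at chr2:164911751-164912000. Ankle2 lies on the plus strand with this window at chr5:110230754-110231003. Cnpy2 lies on the plus strand with this window at chr10:128322209-128322458. Apip lies on the plus strand with this window at chr2:103073425-103073674.
Zfp335: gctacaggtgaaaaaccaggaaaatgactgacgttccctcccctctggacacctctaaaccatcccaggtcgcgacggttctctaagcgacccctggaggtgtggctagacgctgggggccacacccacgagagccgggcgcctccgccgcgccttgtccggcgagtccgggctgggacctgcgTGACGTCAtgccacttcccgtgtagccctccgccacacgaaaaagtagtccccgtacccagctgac
Ankle2: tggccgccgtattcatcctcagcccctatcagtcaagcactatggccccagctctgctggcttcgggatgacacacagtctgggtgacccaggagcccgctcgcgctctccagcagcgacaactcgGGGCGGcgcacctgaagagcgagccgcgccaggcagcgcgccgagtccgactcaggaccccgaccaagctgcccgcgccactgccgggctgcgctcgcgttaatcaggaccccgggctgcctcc
Cnpy2: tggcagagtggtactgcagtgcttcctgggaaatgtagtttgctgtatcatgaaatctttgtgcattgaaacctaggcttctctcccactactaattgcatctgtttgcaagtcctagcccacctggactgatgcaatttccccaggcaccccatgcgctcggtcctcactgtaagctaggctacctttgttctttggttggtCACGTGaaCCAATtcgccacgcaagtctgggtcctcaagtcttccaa
Apip: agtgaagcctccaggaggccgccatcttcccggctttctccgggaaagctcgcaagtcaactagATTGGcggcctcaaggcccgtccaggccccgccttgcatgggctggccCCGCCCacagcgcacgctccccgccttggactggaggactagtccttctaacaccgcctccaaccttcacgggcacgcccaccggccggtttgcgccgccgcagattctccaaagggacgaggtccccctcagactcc

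The windows were compared by base composition, shared runs and motifs. The GC content was 63.6% for Zfp335, 68.8% for Ankle2, 66.4% for Apip and 49.6% for Cnpy2, against a median of 52.4% and an upper quartile of 61.2% over 32851 promoters, so that all but Cnpy2 lay above that quartile. The longest run of bases present in all 4 windows, on either strand, was 6 bases. The longest runs shared by a pair of windows were of 7 to 9 bases, and each of these is held by 0.244% to 8.89% of all promoters. The GC box GGGCGG was found before Ankle2 and Apip and the CCAAT box CCAAT before Cnpy2 and Apip, and 32.7% and 33.9% of all promoters hold these. The cyclic AMP response element TGACGTCA was found before Zfp335 alone, and 1.55% of promoters hold it. The E-box CACGTG was found before Cnpy2 alone, and 6.02% of promoters hold it. Neither the TATA box TATAAA nor the ETS motif CCGGAAG was found in any of the 4 windows, and 12.4% and 6.91% of promoters hold them. Both strands were searched, no motif is contained in another, and a match is not a binding site.

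As far as 3' counts can, the deleted gene Zfp335 checks the labels. It is ENSMUSG00000039834 on the minus strand of chromosome 2, from 164891882 to 164911757 in GRCm38. In resting Treg-like barcodes it had 9.46 CPM (7.58 to 11.7) in WT from 87 UMIs and 0.985 CPM (0.593 to 1.54) in KO from 19 UMIs, a KO to WT ratio of 0.104 (0.0598 to 0.172). In activated Treg-like barcodes it had 6.44 CPM (4.79 to 8.47) in WT and 0.397 CPM (0.129 to 0.926) in KO, a ratio of 0.0616 (0.0192 to 0.153). The histone-led T-lineage cluster had 6.90 and 0.402 CPM, a ratio of 0.0583 (0.0155 to 0.156). In effector Treg-like barcodes the WT library had 8.68 CPM from 165 UMIs, and the KO library had a single UMI, so that the ratio of 0.129 (0.00325 to 0.729) is loosely bounded. The WT and KO intervals did not overlap in any of these states. Within WT, the level was lower in activated than in resting Treg-like barcodes, by a factor of 0.680 (0.472 to 0.972), whereas effector and resting barcodes were not told apart (0.918, 0.704 to 1.20). Over all T-lineage barcodes, 397 WT and 40 KO UMIs gave a ratio of 0.0936 (0.0658 to 0.130), so that the label KO and the 3' signal went together without the signal reaching 0.

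Ankle2 (ENSMUSG00000029501, chromosome 5, 110231004 to 110256651, plus strand) had a nearly flat level over the WT states. It had 18.3 CPM (15.6 to 21.3) in resting, 16.1 CPM (14.4 to 18.02) in effector, 18.9 CPM (16.0 to 22.2) in activated Treg-like barcodes and 16.1 CPM (13.8 to 18.7) in the histone-led cluster, and all of these intervals overlap. The KO level was 3.73 CPM (2.92 to 4.70) in resting, 4.48 CPM (1.22 to 11.5) in effector, 1.67 CPM (1.03 to 2.55) in activated Treg-like barcodes and 3.12 CPM (2.12 to 4.43) in the histone-led cluster. Every KO level lay below every WT level. The KO to WT ratio was 0.204 (0.153 to 0.271) in resting and 0.0880 (0.0529 to 0.139) in activated Treg-like barcodes, and the activated ratio was 0.431 times (0.252 to 0.734) the resting one. This rests on 21 KO UMIs in activated and 72 in resting barcodes, and activated barcodes may differ in kind between WT and KO. In the histone-led cluster the ratio was 0.194 (0.128 to 0.285), which was not told apart from the resting ratio.

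Cnpy2 (ENSMUSG00000025381, chromosome 10, 128322459 to 128327553, plus strand) gave the most UMIs of the 4 genes, 5104 in WT and 1389 in KO T-lineage barcodes. Its WT level was 82.7 CPM (76.9 to 88.8) in resting and 119 CPM (114 to 124) in effector Treg-like barcodes, a factor of 1.44 (1.32 to 1.56) higher, with 106 CPM (98.9 to 113) in activated Treg-like barcodes and 104 CPM (97.6 to 110.0) in the histone-led cluster in between. The intervals of the last 2 overlap. The KO level was 23.5 CPM (21.4 to 25.8) in resting, 28.5 CPM (25.6 to 31.6) in activated and 29.2 CPM (19.0 to 42.7) in effector Treg-like barcodes, and 29.0 CPM (25.7 to 32.5) in the histone-led cluster. The KO to WT ratio hardly varied between these states, with 0.285 (0.253 to 0.320) in the resting, 0.269 (0.237 to 0.305) in the activated and 0.245 (0.160 to 0.361) in the effector state, and 0.279 (0.245 to 0.318) in the histone-led cluster. The activated ratio was 0.944 times (0.797 to 1.12) the resting one. The higher level of activated over resting barcodes was also present within KO, by a factor of 1.21 (1.05 to 1.39), against 1.28 (1.16 to 1.42) within WT.

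Apip (ENSMUSG00000010911, chromosome 2, 103073675 to 103092644, plus strand) varied more between the WT states than the other 3 genes, with a level in the histone-led cluster of 2.18 times (1.86 to 2.55) that in resting Treg-like barcodes. It had 24.7 CPM (21.6 to 28.1) in resting, 33.5 CPM (29.5 to 37.7) in the activated and 46.0 CPM (43.0 to 49.2) in the effector state, and 53.8 CPM (49.4 to 58.4) in the histone-led cluster, and each step in this order was larger than the counting error. The KO library gave 6.64 CPM (5.54 to 7.89) in resting, 10.5 CPM (8.76 to 12.4) in the activated and 24.7 CPM (15.5 to 37.3) in the effector state, and 17.6 CPM (15.1 to 20.4) in the histone-led cluster. The order of resting below activated below histone-led was therefore found in both libraries. The KO to WT ratio was 0.269 (0.215 to 0.335) in resting, 0.313 (0.252 to 0.387) in the activated state, and 0.327 (0.275 to 0.389) in the histone-led cluster, and these were not told apart. The effector state gave 0.536 (0.334 to 0.817), 1.99 times (1.24 to 3.21) the resting ratio, which rests on 22 KO UMIs in 111 barcodes.

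**Figure D1:**
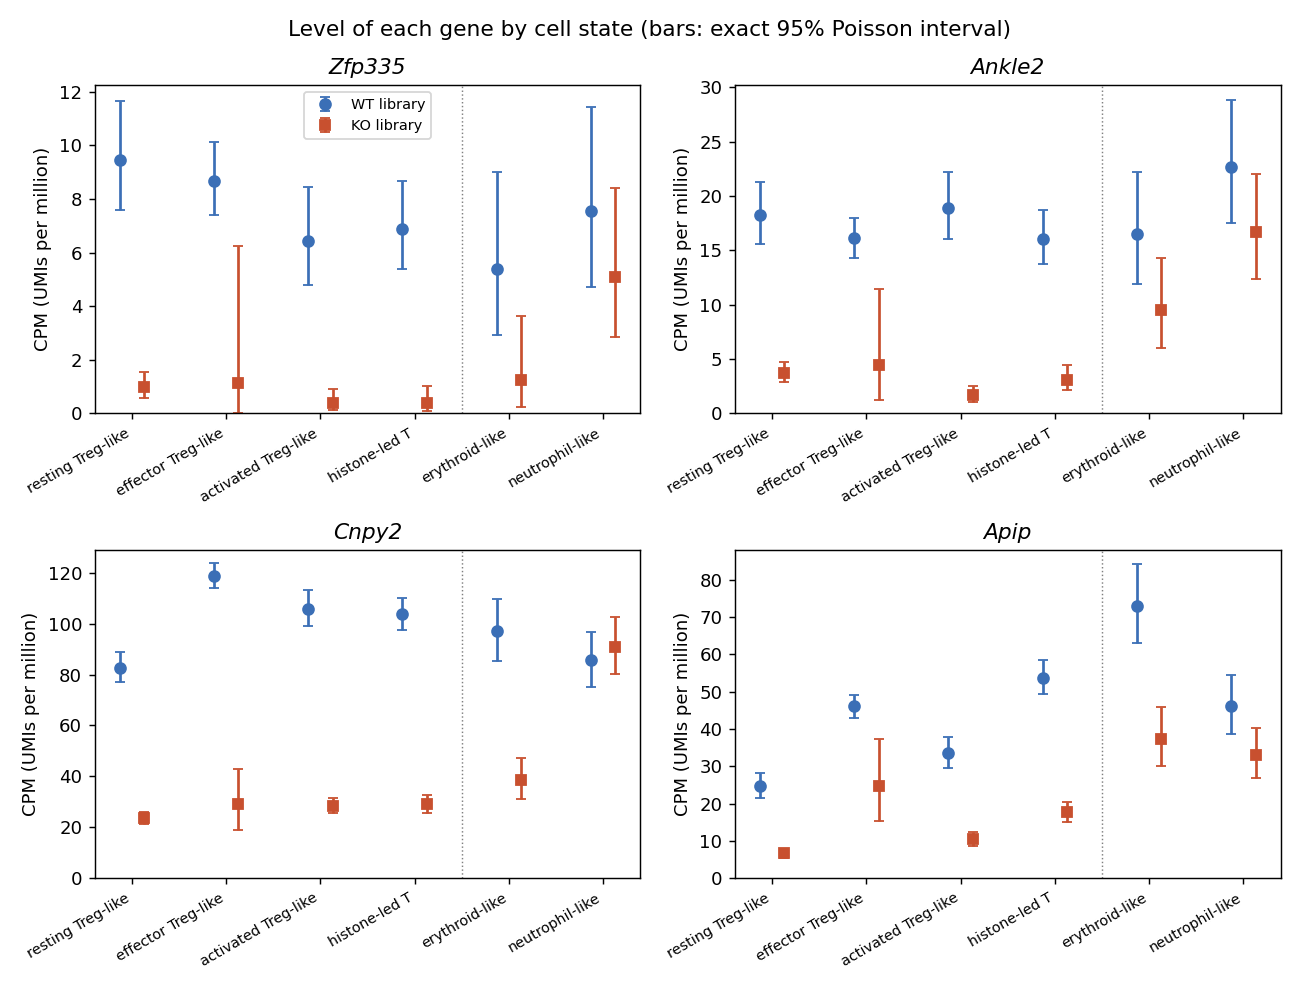
Level of each gene in CPM (vertical axis, from 0) in 4 T-lineage states and, right of the dotted line, in 2 other lineages, for the WT library (circles) and the KO library (squares), with exact 95% Poisson intervals. In the T-lineage states the KO points lie below the WT points for all 4 genes, whereas in neutrophil-like barcodes Cnpy2 had 85.5 CPM in WT and 90.8 CPM in KO.

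The genes were next placed among all genes with at least 200 UMIs over both libraries. In resting Treg-like barcodes 3 of the 4 passed that limit. Zfp335, with 106 UMIs in all, did not pass, and is shown beside the ranked genes. All 3 had a ratio at or below 0.5, as did 0.934% of 7812 genes, and since this contrast was used to choose them nothing is read from it. Ankle2 was the third from the lowest, Apip the 7th and Cnpy2 the 8th. Below Cnpy2 lay also AY036118, S100a4, Ccl5, S100a6 and Itgb1, the last 4 being markers of the effector class. The values just above were 0.292 for Hist1h3f, 0.310 for Polr3f and 0.329 for Lars2, and the median log2 ratio of all genes was -0.06.

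**Figure D2:**
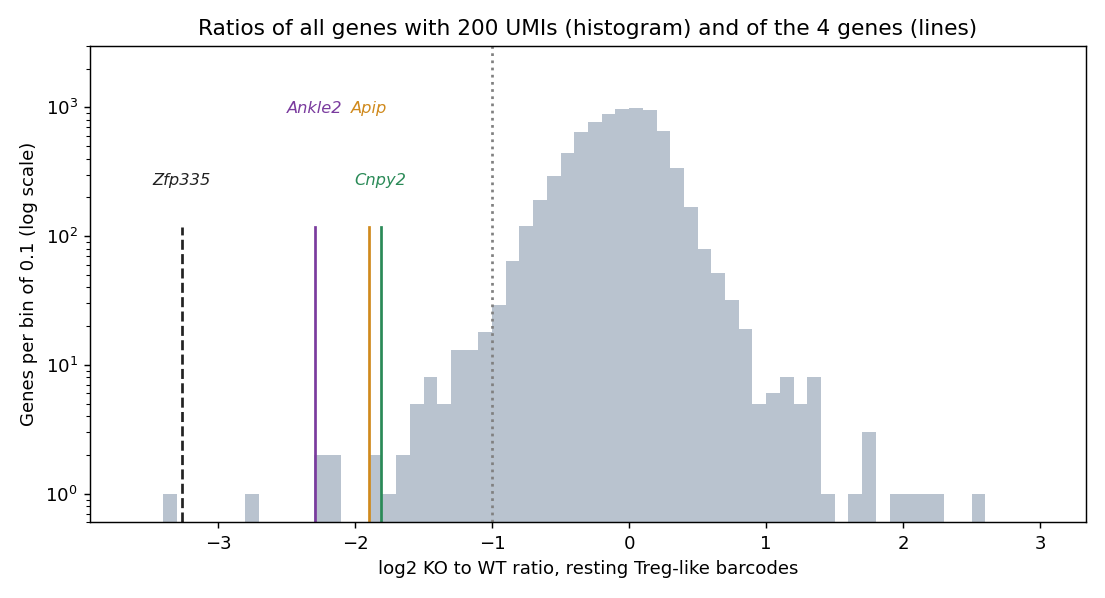
Number of genes (vertical axis, log scale) per bin of the log2 KO to WT ratio (horizontal axis) in resting Treg-like barcodes, over 7812 genes with at least 200 UMIs, with vertical lines at the 4 genes and a dotted line at a ratio of 0.5. The lines lie in the sparse lower tail, which is how Ankle2, Cnpy2 and Apip were chosen. Zfp335 (dashed) is not among the genes counted.

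Over all T-lineage barcodes, the resting ones included, each of the 4 genes had a ratio at or below 0.5, as did 3.55% of 10236 genes. These include the barcodes on which 3 of the genes were chosen. Zfp335 with 40 and Ankle2 with 168 KO UMIs passed the limit through the WT library, so nothing is read from this count. Calling the lineage from single barcodes moved the ratio of Ankle2 to 0.532, which is above 0.5. Over T-lineage barcodes without the resting ones, all 4 passed the limit of 200 UMIs and had a ratio at or below 0.5, beside 4.00% of 9738 genes. The ratios there were 0.0809 (0.0493 to 0.126) for Zfp335, 0.172 (0.137 to 0.213) for Ankle2, 0.257 (0.239 to 0.276) for Cnpy2 and 0.301 (0.271 to 0.334) for Apip. In this order they were the 14th, 45th, 97th and 121st from the lowest. This pool mixes the T cell states in unlike shares. Effector Treg-like barcodes gave 18999027 of its 39286219 WT UMIs but 891908 of its 32914009 KO UMIs. The haemoglobin-led cluster gave 171379 in WT and 8034602 in KO. The pooled Apip ratio lay below its ratios in activated, histone-led and effector barcodes. The part of this mix in the pooled ratios was not tested. Zfp335 with 21 and Ankle2 with 96 KO UMIs passed the limit through the WT library, where they are high, so the ratios are given as values and nothing is read from the count. In activated Treg-like barcodes only Cnpy2 and Apip passed the limit, both at or below 0.5, as were 1.61% of 6953 genes. In the histone-led cluster the same 2 genes passed, both at or below 0.5, beside 2.36% of 7074 genes. In effector Treg-like barcodes Ankle2, Cnpy2 and Apip passed and the first 2 were at or below 0.5, beside 3.40% of 7082 genes. The KO library had 891908 UMIs in that state against 18999027 in WT, which sets the wide intervals. The 3 genes passed there through WT, on 4, 26 and 22 KO UMIs, and Apip in the activated and the histone-led barcodes had 132 and 175 KO UMIs, so nothing is read from these counts either.

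The shallow unnamed T-lineage clusters gave ratios on few UMIs of 1 of the libraries. In the haemoglobin-led cluster the KO levels were 0.996 CPM (0.430 to 1.96) for Zfp335, 4.23 CPM (2.93 to 5.91) for Ankle2, 27.9 CPM (24.3 to 31.8) for Cnpy2 and 12.9 CPM (10.6 to 15.7) for Apip. The intervals of the first 3 overlap those in KO resting Treg-like barcodes, whereas Apip was higher than its 6.64 CPM (5.54 to 7.89) there. Haemoglobin genes took 1.16% of its KO UMIs, against 0.0931% in KO resting Treg-like barcodes, and the part of this in the member levels was not tested. The WT side of that cluster held 26 UMIs of the 4 genes together. In the AY036118-led cluster the KO side held 25 UMIs of the 4 genes, and the ratio was 0.393 (0.219 to 0.659) for Cnpy2 and 0.115 (0.0137 to 0.433) for Apip, whereas the intervals of Zfp335 and Ankle2 included 1.

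Barcodes of other lineages were present in both libraries although the sort was for YFP and CD4, and they address whether the low values extend beyond T cells. In neutrophil-like barcodes (212 WT and 331 KO) Cnpy2 had 85.5 CPM (75.2 to 96.8) in WT and 90.8 CPM (80.3 to 102) in KO, a ratio of 1.06 (0.890 to 1.27). Ankle2 had 22.7 CPM (17.5 to 28.8) and 16.7 CPM (12.3 to 22.0), a ratio of 0.735 (0.497 to 1.08). Zfp335 had 7.56 CPM (4.74 to 11.4) and 5.10 CPM (2.86 to 8.42), a ratio of 0.675 (0.326 to 1.36). Apip had 46.0 CPM (38.6 to 54.5) and 33.0 CPM (26.8 to 40.3), a ratio of 0.717 (0.546 to 0.938). The intervals of the first 3 ratios include 1 and that of Apip does not. Among 3607 genes in these barcodes 0.887% had a ratio at or below 0.5, and neither Cnpy2 nor Apip, the 2 that passed the limit of 200 UMIs, was among them. For 2 genes this is near the share of all genes, so nothing is read from it. By rank Apip was the 195th from the lowest, with 5.38% lower, and Cnpy2 the 1934th, with 53.6% lower.

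The neutrophil-like barcodes fell into 2 clusters, and the libraries held them in different shares. In the cluster of 121 WT and 248 KO barcodes Cnpy2 had 112 and 110 CPM, a ratio of 0.978 (0.815 to 1.18). In the granule-rich cluster of 91 and 83 barcodes it had 27.3 and 18.1 CPM, a ratio of 0.662 (0.294 to 1.40) on 25 and 11 UMIs. The pooled Cnpy2 ratio of 1.06 was thus above the ratio in either cluster. The Apip ratios were 0.676 (0.510 to 0.894) and 0.301 (0.0559 to 1.06), the latter on 15 and 3 UMIs, both below its pooled ratio. Ankle2 had 0.685 (0.450 to 1.04) and 0.684 (0.186 to 2.14), and Zfp335 had 0.589 (0.247 to 1.35) and 1.00 (0.208 to 4.23).

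Against all neutrophil-like barcodes, the ratio over T-lineage barcodes without the resting ones was 0.120 times (0.0543 to 0.264) as large for Zfp335, 0.234 times (0.153 to 0.359) for Ankle2, 0.242 times (0.201 to 0.292) for Cnpy2 and 0.420 times (0.317 to 0.556) for Apip. Against the larger neutrophil-like cluster alone it was 0.137 times (0.0567 to 0.333), 0.251 times (0.160 to 0.394), 0.263 times (0.217 to 0.318) and 0.445 times (0.333 to 0.595) as large in the same order. None of these intervals reaches 1, and the unlike mix of T cell states in WT and KO was not adjusted for. In activated Treg-like barcodes alone, the ratio was 0.0912 times (0.0295 to 0.282) the neutrophil-like one for Zfp335, 0.120 times (0.0665 to 0.215) for Ankle2, 0.253 times (0.205 to 0.313) for Cnpy2 and 0.437 times (0.312 to 0.610) for Apip.

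In erythroid-like barcodes (277 WT and 474 KO) the ratios lay between. Cnpy2 had 97.1 CPM (85.5 to 110) in WT and 38.5 CPM (31.0 to 47.1) in KO, a ratio of 0.396 (0.309 to 0.504). Apip had 72.9 CPM (62.9 to 84.1) in WT, above the 4 T-lineage states described, and 37.2 CPM (29.9 to 45.8) in KO, a ratio of 0.510 (0.393 to 0.659). Ankle2 had a ratio of 0.576 (0.332 to 0.978) and Zfp335 of 0.231 (0.0426 to 0.827) on 14 WT and 3 KO UMIs. The ratio over T-lineage barcodes without the resting ones was 0.649 times (0.506 to 0.831) the erythroid-like one for Cnpy2, 0.298 times (0.172 to 0.517) for Ankle2 and 0.590 times (0.449 to 0.773) for Apip, and for Zfp335 the interval of 0.0933 to 1.31 includes 1. Haemoglobin took 30.1% of the UMIs of KO and 15.7% of WT erythroid-like barcodes, which lowers the CPM of every other gene more in KO. In the cluster of these barcodes with less haemoglobin (10.6% in KO and 6.54% in WT) the ratios were 0.506 (0.392 to 0.649) for Cnpy2, 0.650 (0.498 to 0.843) for Apip and 0.699 (0.393 to 1.21) for Ankle2, each above the value over both clusters. Zfp335 had 0.1997 (0.0220 to 0.870) there on 14 and 2 UMIs. Over both clusters Cnpy2 was the 23rd from the lowest of 2638 ranked genes, with 0.834% lower, and Apip the 66th, with 2.46% lower. The median log2 ratio of these genes was -0.33, and 60 of them had a ratio at or below 0.5. In T-lineage barcodes without the resting ones 0.986% of genes lay below Cnpy2 and 1.23% below Apip. These ranks are over unlike sets of genes, 2638 and 9738, so they do not compare the size of the ratios. Cnpy2 had a like rank in both, with ratios of 0.396 and 0.257, whereas Apip ranked less low in erythroid-like barcodes.

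Over all other lineages the ratio was 0.497 (0.267 to 0.893) for Zfp335, 0.684 (0.502 to 0.927) for Ankle2, 0.747 (0.651 to 0.856) for Cnpy2 and 0.593 (0.494 to 0.710) for Apip, and 0.900% of 5336 genes lay at or below 0.5. Cnpy2 and Apip passed the limit of 200 UMIs here, and neither was at or below 0.5, which is near the share of all genes. By rank Apip was the 120th from the lowest, with 2.23% lower, and Cnpy2 the 609th, with 11.4% lower. After thinning to 1000 UMIs the ratio of Apip was 0.482 and that of Ankle2 0.336, and with the lineage called from single barcodes that of Cnpy2 was 0.267, all below 0.5. The ratio over T-lineage barcodes without the resting ones was 0.163 (0.0796 to 0.332), 0.251 (0.175 to 0.362), 0.344 (0.296 to 0.400) and 0.507 (0.413 to 0.623) times the other-lineage ratio for Zfp335, Ankle2, Cnpy2 and Apip. With the resting barcodes, on which 3 of the genes were chosen, it was 0.188 (0.0984 to 0.360), 0.273 (0.195 to 0.383), 0.338 (0.292 to 0.392) and 0.450 (0.369 to 0.55) times in the same order of genes. The latter contrast depended on the processing for Ankle2 and Apip, where thinning each barcode to 1000 UMIs gave 0.589 and 0.616. It also did so for Cnpy2, where calling the lineage from single barcodes gave 0.885 on 35 WT and 27 KO barcodes of other lineages. The contrast without the resting barcodes was not run under these settings, and it has the same other-lineage ratios below the line. T cell transcripts were present in the other-lineage barcodes as well. The mean level of 8 T cell genes was 122 CPM in WT and 210 CPM in KO other-lineage barcodes, against 936 and 894 CPM in T-lineage barcodes, and the part of this T cell RNA in the other-lineage ratios was not tested. B cell-like and macrophage-like barcodes held 30 WT and 10 KO UMIs of the 4 genes in all and gave no usable ratio.

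**Figure D3:**
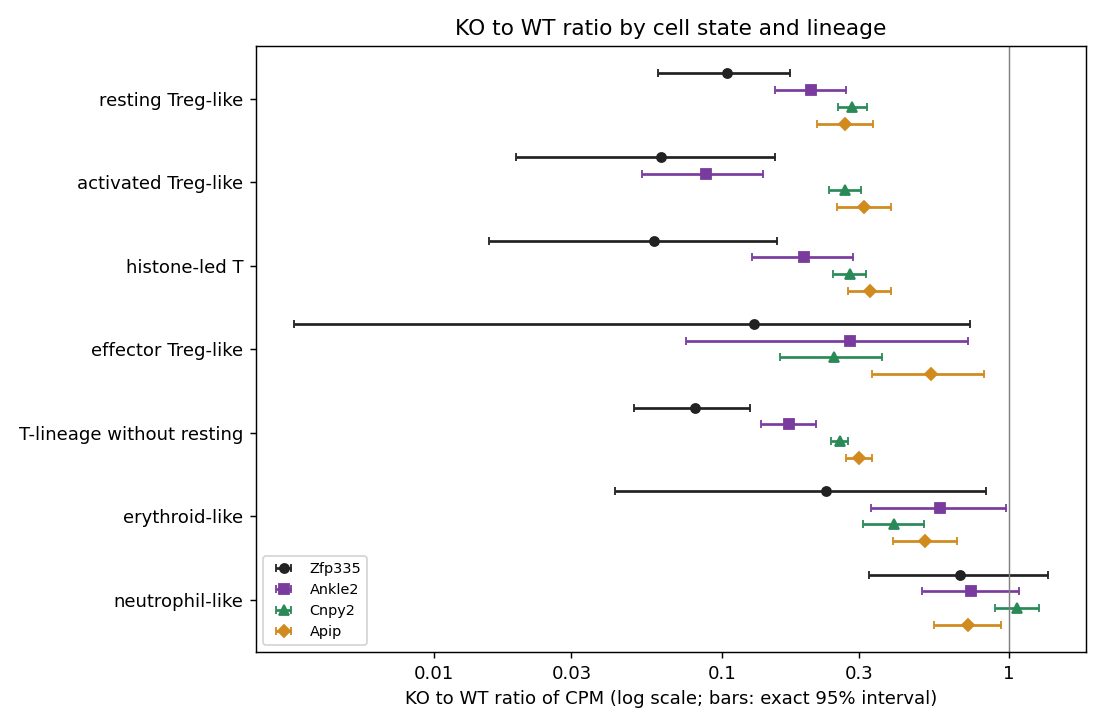
KO to WT ratio of CPM (horizontal axis, log scale) of the 4 genes in T-lineage states and in erythroid-like and neutrophil-like barcodes, with exact 95% intervals and a line at 1. In T-lineage barcodes without the resting ones the ratios run from 0.0809 to 0.301, and in neutrophil-like barcodes from 0.675 to 1.06.

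The share of single barcodes with a transcript was read in states that had not been used to choose the genes, with each barcode thinned to 1000 UMIs. In activated Treg-like barcodes, none of which was too shallow, a Cnpy2 UMI was found in 8.68% (6.76 to 10.9) of 749 WT and 1.94% (1.27 to 2.82) of 1343 KO barcodes, a difference of -6.74 percentage points (-9.06 to -4.73). The shares there were 2.67% and 0.298% for Ankle2, with a difference of -2.37 points (-3.80 to -1.33), 2.40% and 1.12% for Apip, with -1.29 points (-2.72 to -0.152), and 0.801% and 0.0745% for Zfp335, with -0.727 points (-1.66 to -0.172). Without thinning the WT and KO shares were 58.5% and 20.03% for Cnpy2, 17.0% and 1.56% for Ankle2, 26.8% and 8.49% for Apip, and 6.68% and 0.298% for Zfp335, at medians of 9041 and 7592 UMIs. In the histone-led cluster the thinned differences were -8.37 points (-11.1 to -5.95) for Cnpy2, -3.29 points (-5.21 to -1.72) for Apip and -1.82 points (-3.29 to -0.722) for Ankle2. In effector Treg-like barcodes, with 111 in KO, the interval of the thinned difference included 0 for each of the 4 genes.

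In resting Treg-like barcodes, on which 3 of the genes were chosen, the shares are a description. Thinning left out 1 WT and 10 KO barcodes. A Cnpy2 UMI was found in 7.42% (6.34 to 8.63) of 2102 WT and 1.89% (1.52 to 2.33) of 4543 KO barcodes, a difference of -5.53 percentage points (-6.78 to -4.40). The shares were 1.81% and 0.286% for Ankle2, with a difference of -1.52 points (-2.20 to -0.993), 2.47% and 0.726% for Apip, with -1.75 points (-2.53 to -1.10), and 0.904% and 0.0660% for Zfp335, with -0.838 points (-1.34 to -0.489). Without thinning the WT and KO shares were 29.1% and 8.90% for Cnpy2, 7.51% and 1.52% for Ankle2, 9.94% and 2.70% for Apip, and 4.09% and 0.417% for Zfp335. These barcodes had medians of 4144 UMIs in WT and 3772 in KO. No class in the data is known to lack these widely expressed genes, so free RNA could not be set apart in this way. The haemoglobin-high erythroid-like cluster had medians of 4462 and 3444.5 UMIs. It gave thinned Cnpy2 shares of 3.61% (0.752 to 10.2) in WT and 1.19% (0.144 to 4.23) in KO on 3 and 2 barcodes. Neither the WT nor the KO share of resting Treg-like barcodes is distinguished from the share of the same library there. Haemoglobin took 65.7% of the WT and 66.6% of the KO UMIs of that cluster, which leaves fewer thinned UMIs for other genes.

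Most positive barcodes held 1 UMI. Of 2103 WT resting Treg-like barcodes 497 had 1 Cnpy2 UMI, 92 had 2 and 24 had 3 or more, and of 4553 KO barcodes 361, 40 and 4 did. After thinning, none of Ankle2, Cnpy2 and Apip was found in 88.7% (87.2 to 90.0) of WT and 97.1% (96.6 to 97.6) of KO barcodes, and 2 of the 3 were found together in 8 WT and 2 KO barcodes.

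The KO barcodes that still held a Zfp335 UMI were then compared with those that did not. Of the KO T-lineage barcodes 39 had a Zfp335 UMI, with a median depth of 4641 UMIs against 2689 in the 12887 without. Cnpy2 had 28.7 CPM in the former and 26.6 CPM in the latter, a ratio of 1.08 (0.432 to 2.23), and Apip 16.4 and 10.97 CPM, a ratio of 1.49 (0.405 to 3.84). Ankle2 had 0 UMIs in the 39 barcodes and 3.23 CPM in the others, with an upper bound of 4.72 on the ratio. In WT the same ratios were 1.10 (0.996 to 1.21) for Cnpy2, 1.09 (0.928 to 1.27) for Apip and 1.06 (0.824 to 1.35) for Ankle2. At this depth no difference was detectable in KO. The upper bounds in the 39 barcodes were 59.2 CPM for Cnpy2, 15.3 CPM for Ankle2 and 42.2 CPM for Apip, against WT T-lineage levels of 105, 17.2 and 41.2 CPM.

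The genes beside each member were read to see whether the low values extended along the chromosome. Apip and Pdhx, which encodes a subunit of pyruvate dehydrogenase, start 162 bases apart on opposite strands. Pdhx had 10.6 CPM in WT and 10.9 CPM in KO T-lineage barcodes, a ratio of 1.03 (0.916 to 1.17). Upstream of Cnpy2 lies Pan2, a subunit of a deadenylase, which ends 1100 bases before it and had a ratio of 0.913 (0.795 to 1.05). Downstream of Cnpy2 lies Cs, the citrate synthase of the tricarboxylic acid cycle, with a ratio of 0.594 (0.560 to 0.630), lower than 1 and higher than the Cnpy2 ratio of 0.253 (0.238 to 0.268). Golga3, a golgin that ends 4533 bases before Ankle2, had a ratio of 0.853 (0.778 to 0.935), and Pgam5, a mitochondrial phosphatase 2478 bases behind it, had 1.27 (1.15 to 1.40). Pcif1, whose 3' end overlaps that of Zfp335 on the other strand, had 0.823 (0.781 to 0.868). Mmp9, a metalloprotease 29022 bases beyond the start of Zfp335, had 44 WT and 103 KO UMIs, a ratio of 2.17 (1.51 to 3.17), and neutrophils are a known source of it. Pltp and Gm13874, the nearest genes on the remaining sides, had at most 12 UMIs per library in T-lineage barcodes.

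Both annotated antisense transcripts that overlap a start of the 4 genes were low in KO, and they were picked out after their values had been seen. Zfp335os starts 403 bases inside Zfp335 and runs outwards on the plus strand. It had 1.90 CPM from 92 UMIs in WT and 0.326 CPM from 17 UMIs in KO T-lineage barcodes, a ratio of 0.172 (0.0959 to 0.290). Gm43137 starts 197 bases inside Ankle2 and runs outwards on the minus strand. It had 28 UMIs in WT and 1 in KO, a ratio of 0.0332 (0.000811 to 0.201). In other lineages Zfp335os had 9 WT and 7 KO UMIs, a ratio of 0.816 (0.258 to 2.46), and Gm43137 had 1 and 2. The strand of these counts follows the alignment program's assignment, and reads of the overlapped first exons on the wrong strand were not examined.

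**Figure D4:**
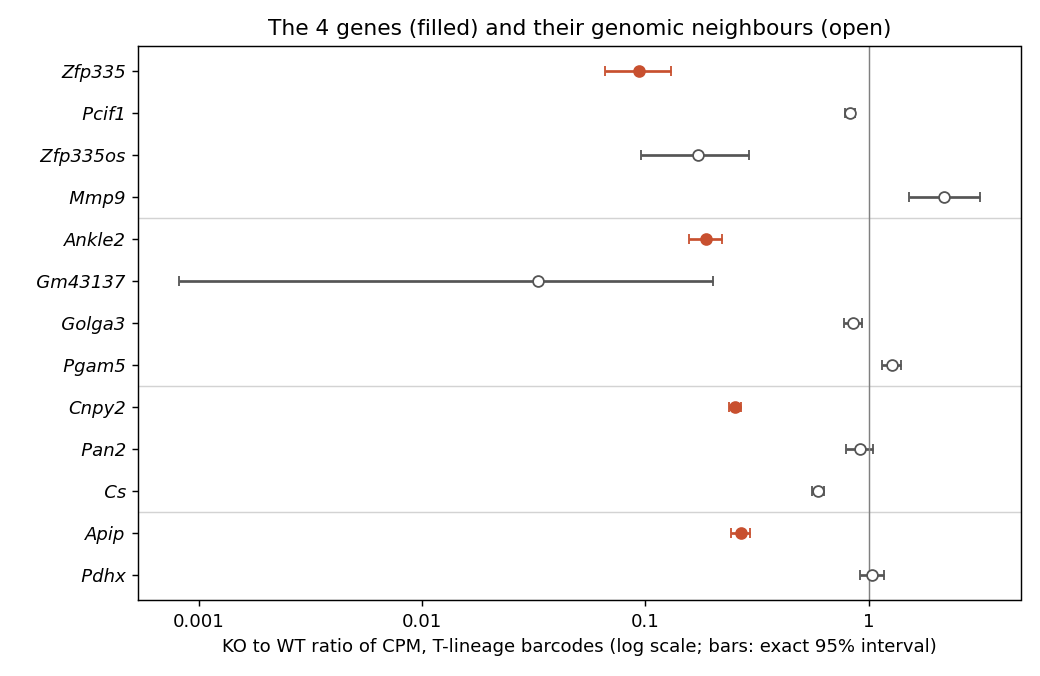
KO to WT ratio of CPM in T-lineage barcodes (horizontal axis, log scale, exact 95% intervals) of the 4 genes (filled) and of overlapping or adjacent genes with at least 20 WT UMIs (open), grouped by gene. Zfp335os at 0.172 and Gm43137 at 0.0332 lie at the level of the 4 genes or below, and Pdhx at 1.03 lies at 1.

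Genes with a pattern like that of Ankle2, Cnpy2 and Apip were searched over the named states with at least 500 barcodes per library, which were resting and activated Treg-like. Likeness was the root mean square difference of the log2 KO to WT ratios from the mean of the 3 genes, over 2 states and 7833 genes. The nearest gene was E530011L22Rik with a difference of 0.07, a resting ratio of 0.248 (0.165 to 0.367) and an activated ratio of 0.206 (0.120 to 0.342). Among the next were 1500009L16Rik, Itgb1, Smim1, B3gat2, Gzmb, Dph6, Polr3f and Pcbd2, with differences from 0.17 to 0.39. Itgb1 (the integrin beta 1 chain) and Gzmb (granzyme B) are genes of effector T cells. Dph6 acts in the synthesis of diphthamide, Polr3f is a subunit of RNA polymerase III and Pcbd2 is a pterin dehydratase. In other lineages Polr3f, Dph6 and Pcbd2 had ratios of 0.826 (0.554 to 1.23), 0.743 (0.529 to 1.04) and 0.647 (0.542 to 0.771), against 0.497 to 0.747 for the 4 genes. Itgb1 with 0.420 (0.368 to 0.478), B3gat2 with 0.216 (0.0809 to 0.495) and E530011L22Rik with 0.159 (0.0485 to 0.410) were lower there. 1500009L16Rik had 0.373 (0.169 to 0.761), Smim1 0.506 (0.443 to 0.576) and Gzmb 0.933 (0.515 to 1.68). With the histone-led cluster as a further state, 7 of the 10 genes were shared, and E530011L22Rik was again the nearest. A ratio at or below 0.5 in all 3 of these states was found for 47 of 7710 genes with at least 50 WT UMIs in each, or 0.610%.

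The genes that act with the 4 proteins were read from lists of 55 genes in all, and none of the genes that passed 200 UMIs had a resting ratio at or below 0.5. Over all 7812 genes 0.934% had such a ratio and 57.5% had a ratio below 1, so that a count of 0 in lists of this size is near the share of all genes. Of 16 genes of the nuclear envelope and of BAF regulation, 15 passed, 7 had a ratio below 1, beside 57.5% of all genes, and the median log2 ratio was 0.05, against -0.06 over all genes. Banf1, which encodes BAF itself, had a ratio of 1.19 (1.11 to 1.28), and its kinase Vrk1 had 1.07 (0.966 to 1.19). Ppp2r1a, the scaffold of the phosphatase that acts on BAF together with Ankle2, was the highest at 1.35 (1.22 to 1.49). Vrk2 and the lamin B receptor Lbr were the lowest at 0.733 (0.618 to 0.870) and 0.737 (0.680 to 0.800).

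Among the relatives and partners of Cnpy2, 6 of 8 genes passed and 1 had a ratio below 1, beside 57.5% of all genes, with a median log2 ratio of 0.09. Cnpy3 had 1.23 (1.01 to 1.49), Cnpy4 had 1.06 (0.803 to 1.42), and Cnpy1 had 0 UMIs in both libraries. Mylip was the lowest at 0.758 (0.624 to 0.924). Eif2ak3, the unfolded protein sensor PERK, did not pass, with 60 WT and 62 KO UMIs and a ratio of 0.493 (0.340 to 0.715). Ddit3, which encodes CHOP, had 1.14 (1.00 to 1.29). In activated Treg-like barcodes Ddit3 had 3.07 (2.50 to 3.80) on 112 WT and 548 KO UMIs, the highest of the 4 genes of the list that passed there. In T-lineage barcodes the list ran from 0.607 (0.498 to 0.740) for Eif2ak3 to 1.84 (1.71 to 1.98) for Ddit3.

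Of 12 genes of methionine salvage and polyamine synthesis, 11 passed and 3 had a ratio below 1, beside the same 57.5%, with a median log2 ratio of 0.09. The enzymes on either side of Apip in the pathway were near 1, with 1.08 (0.970 to 1.22) for Mri1, which makes its substrate, and 0.840 (0.6605 to 1.07) for Enoph1, which takes up its product. Adi1 had 1.08 (0.862 to 1.36), Mtap had 0.859 (0.716 to 1.03), and Got1 was the highest at 1.25 (1.10 to 1.43). The spermidine synthase Srm had 1.19 (1.05 to 1.36) and the ornithine decarboxylase Odc1 1.01 (0.892 to 1.14). In T-lineage barcodes the list ran from 0.769 (0.737 to 0.802) for Odc1 to 1.73 (1.65 to 1.81) for Srm.

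In the apoptosome list 8 of 9 genes passed and 3 had a ratio below 1, beside 57.5%, with a median log2 ratio of 0.19. Apaf1, the partner of Apip, was the lowest at 0.709 (0.562 to 0.897), followed by the caspase inhibitor Xiap at 0.715 (0.637 to 0.802). Bak1 and Bax, which open the outer mitochondrial membrane, were the highest at 1.42 (1.27 to 1.60) and 1.34 (1.27 to 1.42). All 10 zinc finger factors of general promoters passed, 8 of them below 1, beside 57.5% of all genes, with a median log2 ratio of -0.18 and a range from 0.606 (0.544 to 0.675) for Sp3 to 1.14 (1.09 to 1.20) for Klf13.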

How the data were processed

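The deposited matrices hold UMI counts, not normalized. Per the labels, the authors ran Cell Ranger 5.0.1 with mm10. Barcodes passed with 300 genes or more and no more than 5% mitochondrial UMIs, and doublets stayed in. The 2 libraries were clustered together on 2000 variable genes (10000 UMIs per barcode, log scale), 30 principal components (scikit-learn 1.9.0) and 20 neighbours by the Leiden method at resolution 0.5 (igraph 0.11.9), leaving out 134 genes: the 4 genes, all markers, and haemoglobin, mitochondrial, ribosomal RNA-like and sex-linked genes. Clusters whose mean CPM of 8 T cell genes was under 55% of the highest cluster's were called other lineages. A class name needed at least 3 markers and 66% of its list raised 1.5-fold over the median of the other clusters, as many of its markers among the 10 leading genes as any class had, and at least 2 there where several classes passed. T-lineage clusters were matched to T cell classes only, and other clusters to the other classes only. This rule was chosen with the clusters in view.

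UMIs were summed per library and state and given as CPM. UMI sums carry exact Poisson intervals, ratios exact conditional binomial intervals, ratios of 2 ratios log-scale Poisson intervals, shares exact binomial (Clopper-Pearson) intervals and their differences Newcombe intervals (scipy 1.17.1), all at 95%. No test between genotypes was run, since each genotype has 1 library. Coordinates of genes are from GENCODE vM21 (GRCm38, the build of mm10), and promoters from RefSeq. All 4 genes matched. The script for ratios was tested on simulated data. Named genes were the 4 members, the genes next to the highest member in the resting order, the nearest genes on each side, the 10 most alike (0.5 added to each UMI sum) and, in each role list, partners, lowest and highest. One gene among the 10 most alike is not reported here. The members and lists were chosen with earlier results of these data known.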

Additional observations from a re-analysis of the deposited data

Results flagged for a closer look

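Barcodes over 5% mitochondrial UMIs were left out of every comparison, 6468 in WT and 4364 in KO with at least 300 genes, with medians of 1263 and 1361 UMIs. The 4 genes gave a signal in them in both libraries. The KO to WT ratio was 0.0753 (0.0297 to 0.160) for Zfp335 on 123 and 7 UMIs, 0.244 (0.172 to 0.339) for Ankle2 on 233 and 43, 0.332 (0.283 to 0.388) for Cnpy2 on 794 and 199, and 0.336 (0.250 to 0.447) for Apip on 240 and 61. These barcodes were not used to choose the genes.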

How the results depend on the processing

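Of 196 values under alternative settings, 167 lay within the 95% interval of the reported value (within 1.5 times for the share of genes), 29 moved outside it and none changed direction. The T-lineage ratio of Zfp335 lay between 0.0809 and 0.114, and its other ratios stayed within their intervals too. Thinning to 1000 UMIs moved the resting ratio of Ankle2 to 0.143 and of Cnpy2 to 0.244, the T-lineage ratio of Apip to 0.297, the other-lineage ratios of Ankle2, Cnpy2 and Apip to 0.336, 0.905 and 0.482, and their T-lineage over other-lineage ratios to 0.589, 0.282 and 0.616. The mean of single-barcode CPM moved Ankle2 to 0.457 in other lineages and the ratio of its ratios to 0.465. The cause was not tested. Lineage called from single barcodes left 839 WT and 524 KO T-lineage and 35 and 27 other barcodes, and gave T-lineage ratios of 0.532 for Ankle2, 0.236 for Cnpy2 and 0.322 for Apip. For other lineages it gave a value for Cnpy2 alone, 0.267, and a ratio of ratios of 0.885. With resting Treg-like barcodes left out, an alternative chosen after seeing the data, the T-lineage ratio of Apip was 0.301. With the haemoglobin-led and granule-led clusters left out, also chosen then, every T-lineage ratio stayed within its interval. Shares move with depth by construction. After thinning to 500 UMIs the differences for Zfp335, Ankle2, Cnpy2 and Apip were -0.241, -0.863, -2.72 and -0.783 points, without thinning -3.67, -6.00, -20.3 and -7.24, and at 2000 UMIs -2.57, -10.5 and -3.19 for the last 3. With genes of 50 UMIs or more, 2.04% instead of 0.934% of genes had a resting ratio at or below 0.5. No paired analysis was possible because each genotype has 1 library. Depth limits Zfp335 in KO, with 40 UMIs over T-lineage barcodes.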
